A study of Mus musculus with 34 samples.

Results

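The core and SR splicing factor genes described here are 75 protein-coding mouse genes whose symbols begin with Srsf, Snrnp, Snrp, Sf3a, Sf3b, Prpf, U2af or Hnrnp. They were taken by name from the 18548 genes of the deposited table, which holds a row for each of the 75 protein-coding GENCODE M21 genes that carry such a symbol. By prefix they fall into 11 Srsf genes, 19 Snrnp and Snrp genes, 9 Sf3a and Sf3b genes, 13 Prpf genes, 3 U2af genes and 20 Hnrnp genes. The genes were chosen by name and by the measured difference of heterozygotes from wild type, in which Srsf5 and Snrnp70 had been seen at higher values, so the genotype contrast is given as a description and the tests concern the brain regions.

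RNA from prefrontal cortex (PFC), hippocampus and striatum of male C57BL/6J mice was sequenced at postnatal day 56, without treatment. Myt1l is a neuronal gene whose protein is a zinc finger transcription factor; heterozygotes and wild-type mice were compared, and the labels do not describe the allele. Wild type gave 6 PFC, 6 hippocampal and 6 striatal libraries, and heterozygotes gave 5, 5 and 6. The labels do not say that libraries of a group came from separate mice, so p-values measure the spread between these libraries, which may be technical.

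A pre-mRNA is spliced by the spliceosome, which assembles on each intron from small nuclear ribonucleoproteins (snRNPs) and many further proteins. The U1 snRNP reads the 5′ splice site, the U2AF dimer reads the polypyrimidine tract and the 3′ end of the intron, and the U2 snRNP with its SF3A and SF3B complexes covers the branch point; the U4/U6.U5 tri-snRNP, to which several PRPF proteins belong, then brings in the catalytic centre. SR proteins (Srsf) bind exonic enhancers and mostly favour inclusion of the exon, while hnRNP proteins (Hnrnp) coat nascent RNA and often favour skipping. Brain makes wide use of alternative splicing.

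The values are normalized counts, and their sum per library was 25786041 to 29798959, highest in PFC (29092563 to 29798959) and lowest in striatum (25786041 to 27313394). Region markers followed the labels: in wild type the sum of 7 striatal markers was 57011 to 70720 in striatum against 4773 to 8203 in PFC and 2293 to 2641 in hippocampus, and that of 6 hippocampal markers was 28665 to 31796 in hippocampus against 6074 to 7718 and 11269 to 15041 in PFC and striatum. The sum of 6 cortical excitatory neuron markers (6 of 6 in the table) was 48700 to 51675 in PFC, 34097 to 36707 in hippocampus and 2393 to 12224 in striatum. In striatum 5 libraries stood apart with sums of 8218 to 12224: wild-type replicates 1, 4 and 5 and heterozygote replicates 1 and 2. The other 7 were at 2299 to 3283. The striatal marker sums of these wild-type replicates were 67725, 69563 and 70720, against 57011 to 67005 in the other wild-type replicates. Those of the heterozygote replicates were 65868 and 48573, against 48912 to 70956. The striatal results are given with and without these 5, and which set is the purer striatum was not tested. Myt1l spanned 5578 to 7992 in wild-type and 6388 to 7525 in heterozygote PFC, 5552 to 7186 and 6645 to 7550 in hippocampus, and 6923 to 8275 and 7064 to 9505 in striatum, so its level did not separate the genotypes. A code in the column names of 34 libraries recurs across regions, and 1 of the 12 codes stands on PFC wild-type replicate 6 and on replicate 1 of the hippocampal and striatal heterozygotes, against the labels of at least 1 region if a code marks a mouse, which the labels do not say. The labels were followed, and the values without these 3 libraries are given where they enter.

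All 75 genes were well detected. Their lowest value in any library was 124.3 normalized counts, and all 75 passed the filter on low values (a mean of at least 10). The spread between libraries of a group, averaged over the 6 groups, was small: the median SD was 0.08 on the log2 scale, against 0.16 over the 17017 genes tested in wild type and 0.11 over the 9022 genes in the same range of levels. The regions also lay close together. The highest region mean was a median of 1.13 times the lowest, against 1.32 over all genes and 1.23 over genes in the same range of levels.

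Levels are compared between genes as normalized counts per kilobase (kb) of exon, averaged over the wild-type libraries. Snrpn, which encodes the Sm protein SmN that replaces SmB in the snRNPs of neurons, had the highest level, at 7784 per kb. Hnrnpa1, an hnRNP that silences exons, and Srsf5, an SR protein, followed at 1983 and 1962 per kb. The lowest was Snrpc, a U1 snRNP protein, at 73.7 per kb. The median level per kb was highest in the Hnrnp genes (982, from 138 at Hnrnpr to 1983) and the Srsf genes (624.7, from 184 at Srsf12 to 1962). It was 316 in the U2af genes, 300.5 in the Sf3a and Sf3b genes, 280.3 in the Snrnp and Snrp genes and 248 in the Prpf genes. Within those groups the highest were U2af2 (784 per kb), the large U2AF subunit, Sf3b1 (860 per kb), the branch point clamp of the U2 snRNP, and Prpf8 (791 per kb), the scaffold of the catalytic centre; U2af1l4 (258), Sf3b5 (140) and Prpf38a (95.4) were the lowest. This order rests on the length chosen. Per kb of the mean protein-coding transcript Snrnp70, the RNA-binding protein of the U1 snRNP, was first at 10811, followed by Hnrnpa2b1 at 8492 and Snrpn at 8386, since Snrnp70 has 7618 bases of annotated exon but a mean coding transcript of 777 bases.

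**Figure D1:**
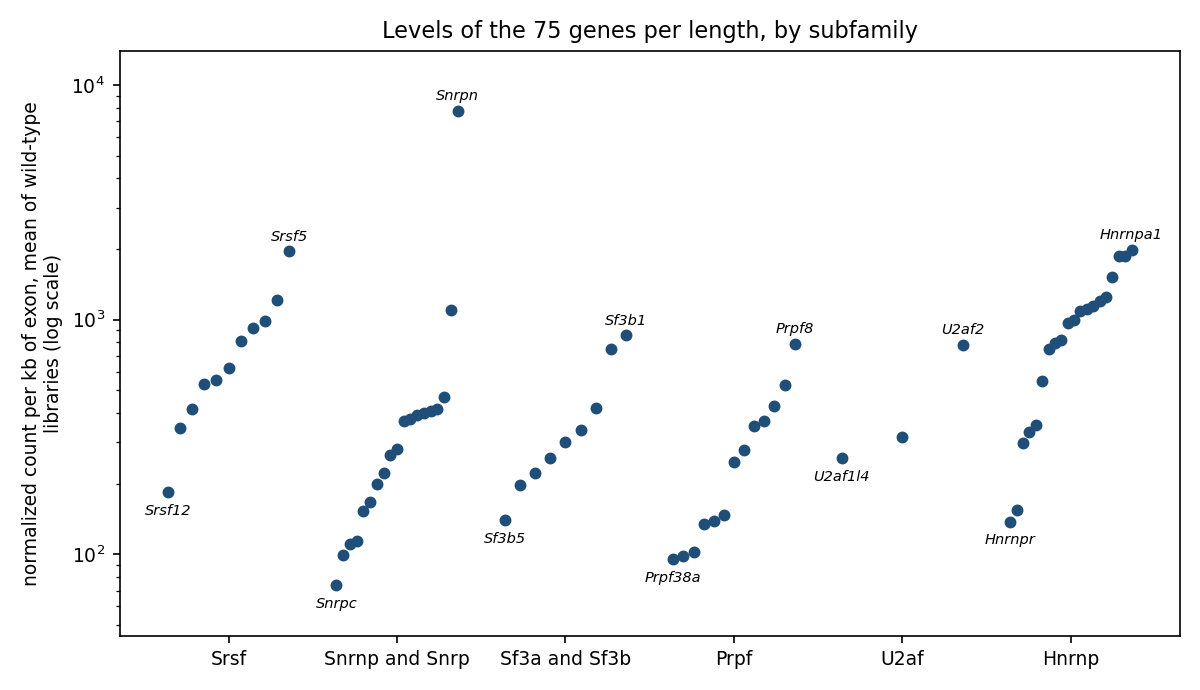
Each point is 1 of the 75 genes, plotted as its mean normalized count per kb of exon over the 18 wild-type libraries (log axis) and ordered by level within its subfamily, with the highest and lowest gene of each named. Snrpn stands at 7784 per kb, and every other gene is at or below the 1983 per kb of Hnrnpa1.

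Promoters of these genes were read for short motifs, and a link between a motif and the region differences was not tested. Windows from 250 bases before to 50 bases after an annotated start were in RefSeq's table (GRCm38.p6) for 65 of the 75 genes, 86 windows in all. On both strands, the ETS core CCGGAA was in 45.3% of these 86 windows, against 23.7% of the windows of protein-coding genes of the table and 14.9% of all windows. By gene it was found in at least 1 window of 6 of 7 Sf3a and Sf3b genes, 7 of 11 Prpf genes, 6 of 11 Srsf genes, 8 of 16 Snrnp and Snrp genes, 6 of 18 Hnrnp genes and 0 of 2 U2af genes. The CRE core TGACG was in 44.2% of member windows (28.5% of those of protein-coding genes of the table, 20.8% of all), the GC box GGGCGG in 66.3% (59.1%, 35.7%) and the CCAAT box in 45.3% (37.2%, 37.4%). TATAAA was in 9.3% (7.67%, 13.6%) and the NRF1 core GCATGCGC in 5.81% (4.58%, 2.71%). These shares were not tested, and a match of letters is not a bound site. The GC box, CRE core and CCAAT box are searched by their letters and may share bases with the others.

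The 250 bases before the start are shown for the genes named when the set was proposed and for Hnrnpa2b1, an abundant hnRNP that was lower in PFC. Capitals mark the NRF1 core and the ETS core on either strand (GCATGCGC or GCGCATGC, and CCGGAA or TTCCGG). Snrnp70 (ENSMUSG00000063511, chromosome 7, 45376453 to 45395742) lies on the minus strand and its stretch is chr7:45395743-45395992. Srsf5 (ENSMUSG00000021134, chromosome 12, 80945504 to 80950507) lies on the plus strand, with chr12:80945249-80945498. Hnrnpa2b1 (ENSMUSG00000004980, chromosome 6, 51460932 to 51469894) lies on the minus strand, with chr6:51469895-51470144 as 1 of its 2 windows.
Snrnp70: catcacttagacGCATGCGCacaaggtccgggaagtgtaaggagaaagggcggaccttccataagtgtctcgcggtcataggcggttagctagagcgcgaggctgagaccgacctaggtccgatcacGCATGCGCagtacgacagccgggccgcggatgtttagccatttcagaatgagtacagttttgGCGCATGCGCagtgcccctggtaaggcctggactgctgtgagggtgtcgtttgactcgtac
Srsf5: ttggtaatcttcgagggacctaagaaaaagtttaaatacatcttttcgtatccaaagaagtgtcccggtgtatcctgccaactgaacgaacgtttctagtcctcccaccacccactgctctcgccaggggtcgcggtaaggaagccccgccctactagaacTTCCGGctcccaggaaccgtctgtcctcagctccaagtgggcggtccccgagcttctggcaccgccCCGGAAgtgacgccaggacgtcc
Hnrnpa2b1: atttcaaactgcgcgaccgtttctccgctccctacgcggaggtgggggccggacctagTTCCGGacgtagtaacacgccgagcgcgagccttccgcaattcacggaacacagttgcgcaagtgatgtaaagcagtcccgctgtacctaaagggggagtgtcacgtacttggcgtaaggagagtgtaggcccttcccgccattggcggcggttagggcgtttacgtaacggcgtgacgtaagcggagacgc
The 300-base window of Snrnp70 holds 6 NRF1 core matches, with overlapping matches on the 2 strands counted apart, and 4 of them lie in the stretch shown. It is the only one of 32851 windows with that many, a gene picked out after the counts were seen. Srsf5 has 2 ETS cores and Hnrnpa2b1 has 1 in the stretch shown.

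The first test asked where the 75 genes differ between PFC and hippocampus of wild-type mice. Most of the genes that differed were lower in PFC. In limma, at a Benjamini-Hochberg adjusted p under 0.05 over all genes tested, 36 of the 75 were lower and 3 higher in PFC, while 23.6% of all genes were called lower and 22.7% higher (46.3% in either direction). The median log2 difference of the 75 was -0.11, against -0.01 over all genes, and 14 of 75 lay above 0 (48.7% of all genes). The libraries of the regions did not overlap for some of the 75, with PFC lower for 22 and higher for 1, where 13.7% and 15.3% of all genes were so placed. In these bulk samples, fewer cells of a type and less RNA per cell cannot be told apart.

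The Hnrnp and Srsf genes carried most of these calls: 16 of 20 Hnrnp genes and 8 of 11 Srsf genes were called lower in PFC and none of either higher, with medians of -0.18 and -0.17. All 20 Hnrnp and all 11 Srsf values lay below 0, though 4 and 3 of them did not pass. The highest Hnrnp value, that of Hnrnph2, was -0.0001, so its level did not differ between the 2 regions in this measure. Of the Sf3a and Sf3b genes 4 of 9 were lower, of the Prpf genes 4 of 13 and of the U2af genes 1 of 3, none higher. The Snrnp and Snrp genes were divided, with 3 of 19 lower and 3 higher and a median of -0.01.

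Hnrnpa2b1, an hnRNP that also sorts RNA into dendrites and granules, was at 10237 to 10769 (median 10429) in wild-type PFC and 12672 to 13555 (median 13140) in hippocampus. No PFC library reached a hippocampal one, and the log2 difference was -0.33 (SE 0.03; limma adjusted p = 5.1e-08). Srsf1, the archetypal SR protein, was at 4660 to 5010.1 (median 4763) against 5572 to 6378 (median 6025), again without overlap (-0.32, SE 0.04; limma adjusted p = 2.11e-06). Other called Hnrnp genes were Hnrnpab (-0.32), Hnrnpc (-0.30), Hnrnpr (-0.30), Hnrnpa1 (-0.27) and Hnrnpk (-0.26), and other called Srsf genes were Srsf2 (-0.27), Srsf9 (-0.27), Srsf12 (-0.26) and Srsf7 (-0.24).

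Large differences were also found in snRNP-associated genes. Snrnp40, a WD-repeat protein of the U5 snRNP, was at 360.6 to 440.2 in PFC against 513.2 to 574.4 in hippocampus, without overlap (-0.40, SE 0.06; limma adjusted p = 1.28e-05), and Sf3b3, an SF3B subunit, was at 1831 to 2000.1 against 2356 to 2514 (-0.34, SE 0.04; limma adjusted p = 4.66e-08). Sf3b3 shares 188 exon bases with Cog4 on the opposite strand, and whether the counting used strand is not given. The textbook core members Prpf8 (-0.17, SE 0.04), Sf3b1 (-0.14, SE 0.04) and U2af1 (-0.19, SE 0.05) were also lower in PFC; Sf3b1 was not called among the libraries whose column code begins with 35 alone (-0.08).

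Higher in PFC than in hippocampus were Snrpn (0.19, SE 0.03), Snrnp25 (0.23, SE 0.09; limma adjusted p = 0.0342) and Snrpa1 (0.17, SE 0.06; limma adjusted p = 0.0332). Snrnp25 belongs to the minor spliceosome and Snrpa1 to the U2 snRNP. The last 2 rest on single libraries: either call was lost when 1 of 7 libraries was left out. For Snrnp25 these were PFC replicates 2, 3 and 5 and hippocampal replicates 3 to 6, with values of 0.19 to 0.23. For Snrpa1 they were PFC replicates 3, 4 and 5 and hippocampal replicates 1, 2, 4 and 6, with values of 0.14 to 0.17.

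PFC against striatum gave a similar count. There 31 of the 75 genes were called lower and 7 higher in PFC, while 29% of all genes were called lower and 27.7% higher (56.6% in either direction). The median of the 75 was -0.10 against -0.01 over all genes. Without overlap of the libraries, 18 were lower and 3 higher in PFC (17.5% and 18.4% of all genes). Called lower were 7 of 11 Srsf genes, 11 of 20 Hnrnp, 5 of 9 Sf3a and Sf3b, 3 of 13 Prpf, 2 of 3 U2af and 3 of 19 Snrnp and Snrp genes; called higher were 4 Snrnp and Snrp genes, 2 Prpf genes and 1 Hnrnp gene. This comparison shares its PFC libraries with the previous one, so the overlap of 26 genes called lower in PFC in both is not independent evidence. The share of all genes called lower in both was not computed.

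Hnrnpr, which binds neuronal mRNAs, was at 2411 to 2775 (median 2601) in PFC and 2951 to 3736 (median 3333) in striatum, without overlap (-0.37, SE 0.05; limma adjusted p = 3.43e-06). Srsf7, an SR protein with a zinc knuckle, was at 2739 to 2996 (median 2804) against 3397 to 3805 (median 3682), without overlap (-0.36, SE 0.03; limma adjusted p = 8.85e-09). Hnrnpd, also called AUF1, a factor of mRNA decay, was at 3243 to 3736 against 4098 to 4935 (-0.35, SE 0.05; limma adjusted p = 6.41e-06), and shares 385 exon bases with Gm17092 on the opposite strand. Hnrnpa2b1 and Srsf1, at 12440 to 14508 and 5421 to 6448 in striatum, were again above every PFC library (-0.33 each for PFC minus striatum, SE 0.03 and 0.04).

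Snrpn showed the largest difference in the other direction. It was at 18428 to 19525.5 (median 19283) in wild-type PFC, 16558 to 17142 (median 16630.2) in hippocampus and 13888 to 15383 (median 14350.3) in striatum, so the 3 regions did not overlap. The log2 difference was 0.41 for PFC against striatum (SE 0.03; limma adjusted p = 7.69e-11) and 0.21 for hippocampus against striatum (SE 0.03; limma adjusted p = 2.25e-06). Snrpn shares 216 exon bases with Snurf and 589 with Gm38393 on its own strand, and its protein is a close relative of that of Snrpb; how reads common to such genes were assigned is not given. In all, 19 of the 75 genes share exon bases with another gene of the table, 17 of them on the opposite strand, and several, Hnrnpa1 among them, have near-identical processed copies in the genome.

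Snrpb, the Sm protein SmB made in all tissues, had another pattern. It was at 903.3 to 1021 in PFC, 931.9 to 1081 in hippocampus and 684.6 to 878.1 in striatum. PFC and hippocampus overlapped and were not called different (-0.01, SE 0.06; limma adjusted p = 0.940; 95% interval -0.12 to 0.11), and both were above every striatal library (0.28 and 0.29, SE 0.06 each; limma adjusted p = 1.69e-04 and 1.73e-04). Prpf40b, a U1-associated protein, was at 1706 to 2312 in PFC and 1392 to 1781 in striatum (0.33, SE 0.08; limma adjusted p = 0.00156), and these groups overlapped. Snrnp25 (0.25, SE 0.09) and Hnrnph2 (0.15, SE 0.04) were the other genes with a large difference, and Prpf39 (0.14) and Snrnp70 (0.12, SE 0.04) completed the 7.

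Hippocampus and striatum differed less in these genes. Of the 75, 18 were called higher and 8 lower in hippocampus, while 23.6% of all genes were called higher and 23.9% lower (47.5% in either direction), and the median was 0.03 against -0.01. Without overlap, 11 were higher and 3 lower in hippocampus (15.3% and 14.5% of all genes). Srsf9, an SR protein with a short RS domain, was at 974.4 to 1050.5 (median 1012) in hippocampus, 713.1 to 860.8 (median 807.7) in striatum and 724.1 to 900.8 (median 853.5) in PFC. It was above every striatal and every PFC library in hippocampus (0.36 against striatum, SE 0.06; limma adjusted p = 1.75e-05), and PFC and striatum overlapped (0.09, SE 0.06; limma adjusted p = 0.190).

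Also called higher in hippocampus than in striatum were Snrnp40 (0.30, SE 0.06), Prpf39 (0.24, SE 0.05), which shares 599 exon bases with Fkbp3 on the opposite strand, and 8 Hnrnp genes, from Hnrnpa3 (0.11) to Hnrnpll (0.19). The Sm ring was divided: Snrpb and Snrpn were higher, while Snrpd1 (-0.25, SE 0.06) and Snrpf (-0.22, SE 0.09; limma adjusted p = 0.0415) were lower in hippocampus. Snrpa1 (-0.18, SE 0.06), Prpf38b (-0.16, SE 0.04) and Hnrnph3 (-0.15, SE 0.06; limma adjusted p = 0.0291) were lower as well. The Snrpf call was lost without any 1 of 8 libraries (hippocampal replicates 1, 3, 5 and 6, striatal replicates 1, 2, 4 and 6; -0.17 to -0.23), and the Hnrnph3 call without hippocampal replicate 1 or 5 or striatal replicate 4 (-0.13 each).

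**Figure D2:**
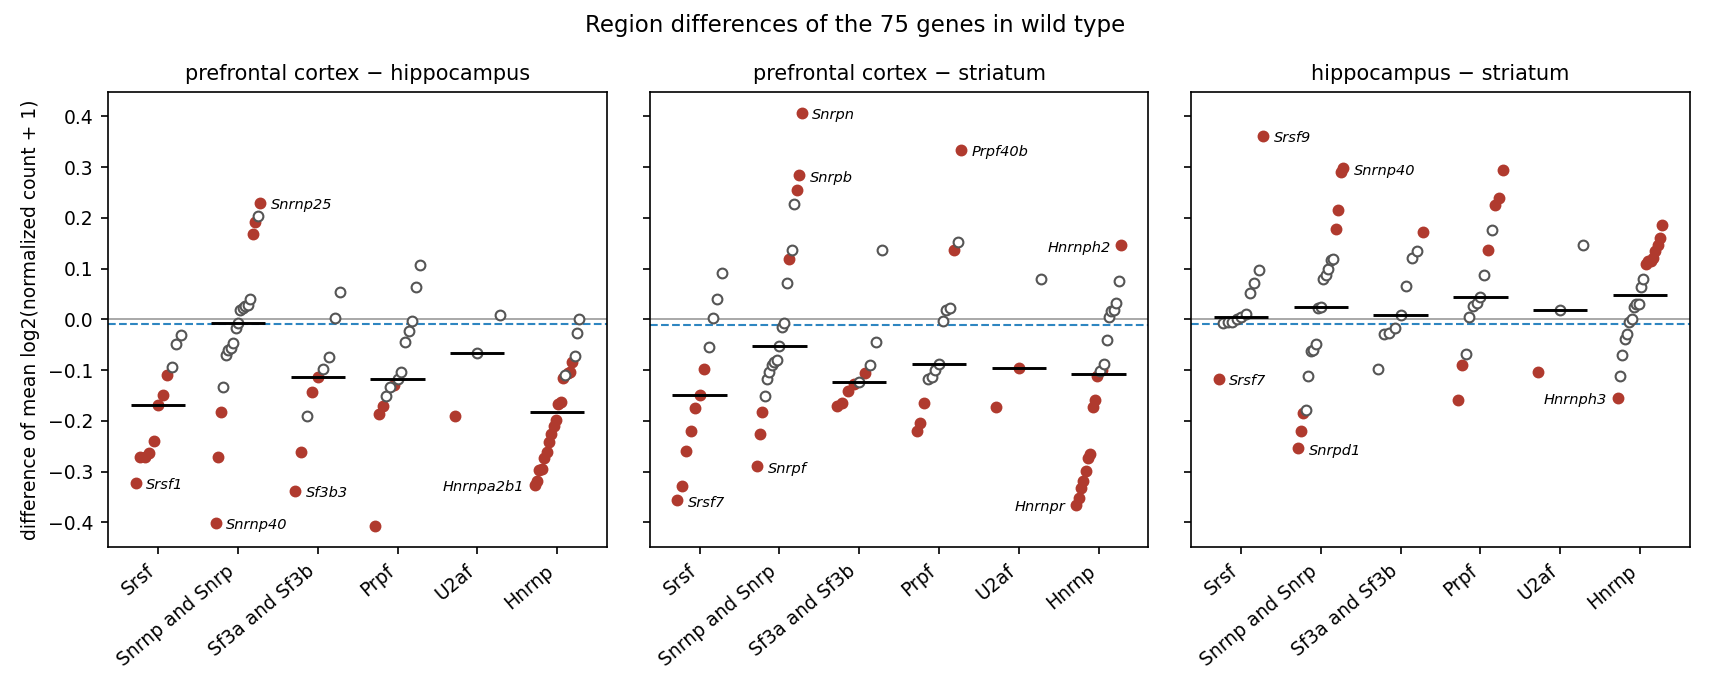
Each point is 1 of the 75 genes in wild type, plotted as its difference of mean log2(normalized count + 1) between 2 regions, by subfamily; filled points passed the adjusted threshold in limma, black bars are subfamily medians and the dashed line is the median of all genes tested. All Hnrnp and Srsf points lie below 0 for PFC against hippocampus, Hnrnph2 only by -0.0001, and Snrpn stands at 0.41 for PFC against striatum.

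Across the 3 regions, 25 genes had their means in the order hippocampus, striatum, PFC, 19 in the order striatum, hippocampus, PFC, 16 in the order hippocampus, PFC, striatum, 8 in the order striatum, PFC, hippocampus and 7 in the order PFC, hippocampus, striatum. PFC thus had the lowest mean in the first and second of these orders. For 24 genes no pair of regions was called, and for 8 all 3 were. The shares of all genes with these orders or these calls were not computed, so the counts are a description only. Prpf19, a ubiquitin ligase of the catalytic spliceosome, varied least, with its highest region mean 1.02 times its lowest.

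**Figure D3:**
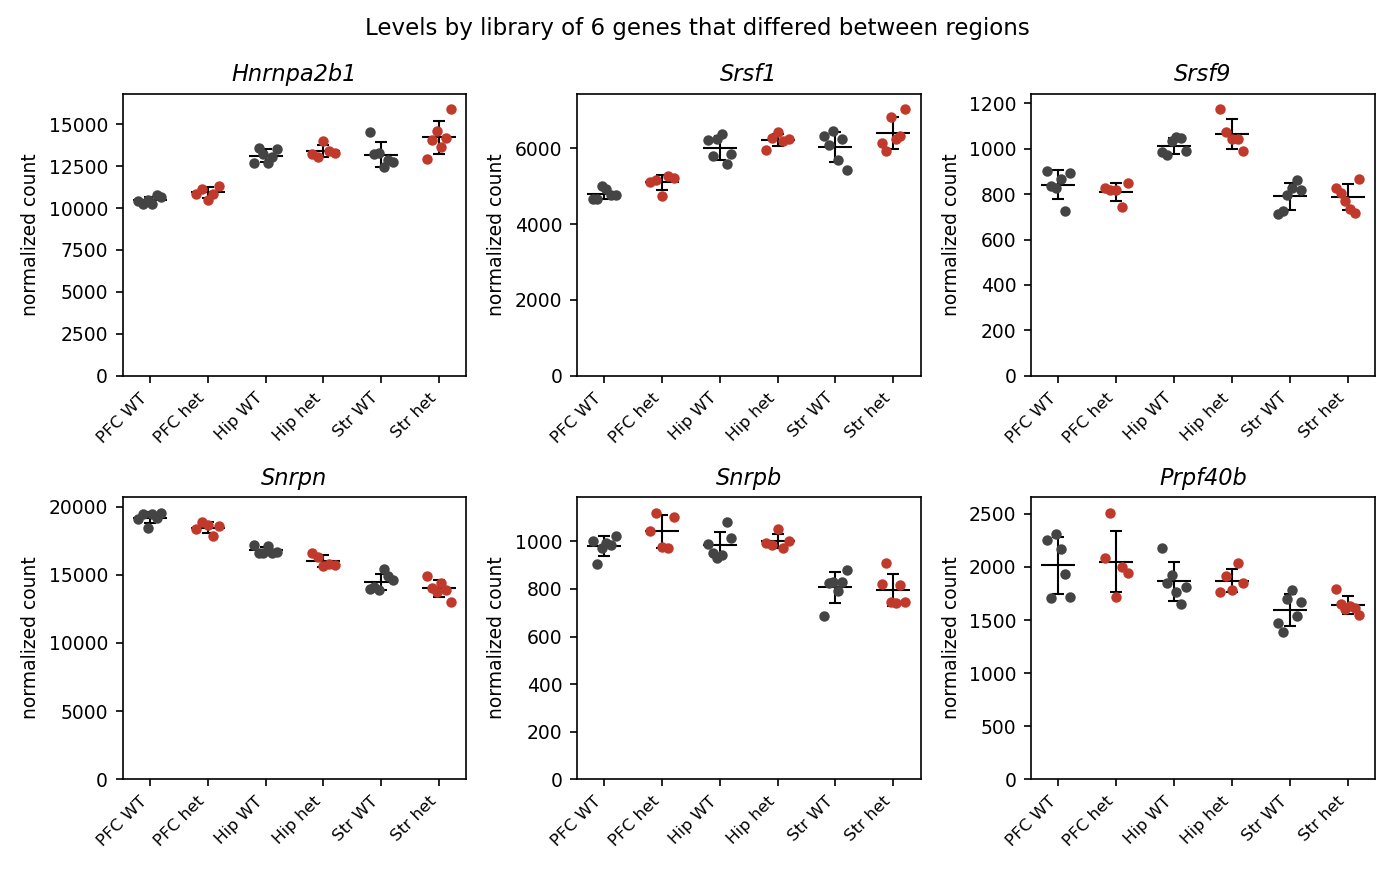
Points are single libraries, horizontal bars group means and whiskers 1 SD; the y axis is the normalized count from 0, and wild-type (WT) libraries are dark and heterozygote (het) libraries red, with PFC, hippocampus (Hip) and striatum (Str) side by side. Hnrnpa2b1 and Srsf1 are lowest in PFC, Srsf9 is highest in hippocampus, Snrpn is high in PFC, lower in hippocampus and lowest in striatum, and Snrpb is low in striatum.

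The scale between regions matters to these counts, since the sums of normalized counts differ by region. With all libraries set to equal totals, the median of all genes moved to -0.10 for PFC against hippocampus, -0.15 for PFC against striatum and -0.06 for hippocampus against striatum. The calls among the 75 became 1 higher and 54 lower for PFC against hippocampus, where 16.9% and 34% of all genes were called higher and lower. They became 2 higher and 55 lower for PFC against striatum (18.5% and 42.7% of all genes), and 12 higher and 11 lower for hippocampus against striatum (19.6% and 28.9%). Relative to the median of all genes, the median of the 75 was -0.10 under either scaling for PFC against hippocampus and -0.09 under either for PFC against striatum. Equal totals multiply each library by a single factor, which shifts nearly all genes alike. That these relative medians stayed the same was therefore fixed in advance and is no check on the scale. Under equal totals the calls of Snrnp25 and Snrpa1 against hippocampus and of Snrnp25, Prpf40b and Hnrnph2 against striatum were lost, and Snrnp70 turned to -0.02 for PFC against striatum.

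Cell type markers moved with the regions, and their part in the differences was not tested. In wild type the summed level of 6 neuronal markers (6 of 6 in the table) was 203300 to 225793 in PFC, 159782 to 168004 in hippocampus and 120698 to 139950 in striatum. That of 8 oligodendrocyte markers (8 of 8) was 87654 to 138084, 145787 to 190776 and 219662 to 267404. The 6 choroid plexus and ependymal markers (6 of 6) summed to 202 to 272 in PFC, 2247 to 65168 in hippocampus and 22689 to 88914 in striatum, and no marker of these 3 lists was under 10 in every library of a group. PFC replicate 1 had the 87654, and hippocampal replicate 6 the 2247. Without the former the calls were 3 higher and 32 lower against hippocampus and 6 higher and 28 lower against striatum, and without the latter 1 higher and 35 lower for PFC against hippocampus. Without PFC replicate 6, whose code is on both genotypes, they were 3 higher and 36 lower, and 7 higher and 29 lower. Without the 3 wild-type striatal libraries with high cortical markers, 7 were called higher and 28 lower for PFC against striatum (26.3% and 26.6% of all genes), and 16 higher and 5 lower for hippocampus against striatum (22.2% and 21%). The calls of Snrnp70 for PFC against striatum (0.11) and of Snrpf (-0.19), Snrpa1 (-0.19) and Hnrnph3 (-0.10) between hippocampus and striatum were lost there, and Snrpn was at 0.43 for PFC against striatum.

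The heterozygote libraries measure the same region differences in samples that the wild-type fit did not use. In them 30 of the 75 genes were called lower and 1 higher in PFC than in hippocampus, where 21.9% and 20.7% of all genes were (42.6% in either direction). Against striatum 34 were lower and 4 higher in PFC (28.1% and 26.9%; 54.9%), and 10 were higher and 4 lower in hippocampus than in striatum (22.7% and 22.6%; 45.3%). Without overlap of the libraries, 19 were lower and 1 higher for PFC against hippocampus (15.2% and 16.2% of all genes), 21 lower and 2 higher for PFC against striatum (18.7% and 19.6%), and 7 higher and 1 lower for hippocampus against striatum (15.2% and 14.3%). Of the 39 wild-type calls between PFC and hippocampus, 27 were called in the same direction in heterozygotes, 69.2% of the wild-type list and 87.1% of the heterozygote list, where all genes gave 76.8% and 83.3%; 37 kept their sign (94.9%, and 98.5% over all genes), the other two being Hnrnpf (0.03 in heterozygotes) and Prpf3 (0.05). Of the 38 between PFC and striatum 32 were, 84.2% of either list (all genes 83.9% and 86.4%), and 37 kept their sign (97.4%, and 99% over all genes), all but Snrnp70. Of the 26 between hippocampus and striatum 12 were, 46.2% and 85.7% (all genes 80.7% and 84.4%), and all 26 kept their sign (98.9% over all genes). None was called in the opposite direction. With equal library totals the last pair split 7 higher to 11 lower (18.7% and 27.1% of all genes). Without the 2 heterozygote striatal libraries with high cortical markers, 5 were called higher and 34 lower for PFC against striatum (26.3% and 27% of all genes), and 10 higher and 3 lower for hippocampus against striatum (22.3% and 21.3%).

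Snrpn in heterozygotes was at 18386, 18861, 18665, 17825 and 18535 in PFC, at 16570.3, 16297, 15632, 15764 and 15739 in hippocampus and at 13011 to 14919 in striatum, again without overlap (0.21, 0.40 and 0.19 for the 3 pairs). Srsf9 was at 1173, 1073, 1044, 1043 and 991.6 in heterozygote hippocampus and at 717.1 to 864.9 in striatum (0.44, SE 0.06; limma adjusted p = 4.93e-06). Srsf1 (-0.29 and -0.33), Hnrnpa2b1 (-0.29 and -0.38), Hnrnpd (-0.34 and -0.36) and Srsf7 (-0.22 and -0.36) were called lower in PFC than in hippocampus and than in striatum in heterozygotes too. Several wild-type calls named above were not called in heterozygotes. For PFC against hippocampus these were Sf3b1 (-0.15; limma adjusted p = 0.0522), U2af1 (-0.06), Snrnp25 (0.02) and Snrpa1 (0.20; limma adjusted p = 0.0589). For PFC against striatum they were U2af1 (-0.10), Snrnp25 (0.20), Prpf39 (0.10) and Snrnp70. For hippocampus against striatum they were Snrpd1 (-0.13), Snrpf (-0.19), Snrpa1 (-0.12), Prpf38b (-0.11), Hnrnpa3 (0.07) and Snrnp70. Whether these differences depend on genotype was not tested. Without hippocampal replicate 1 the heterozygote calls were 1 higher and 29 lower for PFC against hippocampus, and without striatal replicate 1 they were 5 higher and 34 lower for PFC against striatum; either gave 10 higher and 4 lower for hippocampus against striatum.

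Other splicing genes, listed by their role in splicing but with earlier results of these data known, were read beside the 75. Of 101 tested, 12 were called higher and 36 lower in wild-type PFC than in hippocampus (22.7% and 23.6% of all genes). Against striatum 26 and 36 were (27.7% and 29%), and for hippocampus against striatum 31 and 19 (23.6% and 23.9%). In either direction 48, 62 and 50 of the 101 were called, near the 46.3%, 56.6% and 47.5% of all genes. The largest differences of the 101 exceeded any of the 75. Khdrbs3, the STAR-family regulator of neurexin splicing, was at 3851 to 4421 in PFC, 3873 to 4500.1 in hippocampus and 1290.4 to 1768 in striatum (1.54 for PFC against striatum, SE 0.06; limma adjusted p = 3.45e-15). Nova1, a neuronal regulator, was lowest in hippocampus at 1015 to 1359, against 1627 to 2016 in PFC and 1999.9 to 2683 in striatum (0.58 for PFC against hippocampus and -0.99 for hippocampus against striatum; SE 0.08 each). Rbfox3, the neuronal nuclear antigen NeuN, was at 0.89 and Srrm4, the microexon regulator, at 0.81 for PFC against striatum, while Rnpc3 of the minor spliceosome was at -0.60 and Celf6 was at 410.1 to 538.4 in PFC, 474.3 to 570.8 in hippocampus and 742.4 to 1084.5 in striatum. Against hippocampus, Elavl4 was higher in PFC (0.62) and Rbm4 (-0.52) and Tia1 (-0.43) were lower.

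Heterozygotes were then set against wild type within each region. These values are a description, since this contrast was used to propose the genes. In limma 0 of the 75 genes passed in PFC, hippocampus or striatum, where 0% of all genes did, and limma without its trend and robust options also gave 0. At an unadjusted p under 0.05, 5 genes were higher and 2 lower in PFC (2.45% and 2.55% of all genes), 8 higher and 2 lower in hippocampus (2.93% and 3.88%) and 10 higher and 0 lower in striatum (2.81% and 3.07%). The median log2 difference of the 75 was 0.03 in PFC, 0.03 in hippocampus and 0.02 in striatum, with 51, 51 and 49 of 75 above 0, where 48.7%, 49.4% and 48.4% of all genes lay above 0. The genotypes did not overlap for 0 genes in PFC (0.198% of all genes higher, 0.264% lower), 2 higher in hippocampus (0.321%, and 0.357% lower) and 2 higher in striatum (0.141%, and 0.258% lower). The 2 in striatum were Srsf5 and Snrnp70, which the choice of the genes rested on, and those in hippocampus were Srsf5 and Prpf38b. Both Srsf5 and Snrnp70 are also among the genes counted at the unadjusted p in hippocampus and striatum, so these counts are not read against the shares of all genes. By subfamily the medians spanned 0.02 to 0.10 in PFC and 0.01 to 0.04 in hippocampus. In striatum they spanned -0.02 (Snrnp and Snrp) to 0.05 (Hnrnp, 17 of 20 above 0).

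Some marker sums also differed between these groups, and their part in the genotype values was not tested beyond the libraries left out here. The 7 striatal markers (7 of 7 in the table) had a median sum of 67365 in wild-type striatum and 54060 in heterozygote striatum (57011 to 70720 and 48573 to 70956). The cortical excitatory markers had medians of 5556 and 2965 there (2393 to 12224 and 2299 to 11254). In hippocampus the choroid plexus and ependymal markers had medians of 38436 in wild type and 67058 in heterozygotes (2247 to 65168 and 2655 to 85778). The genotypes overlapped in each of these sums, and no marker of these 3 lists was under 10 in every library of a group. Without the 5 striatal libraries with high cortical markers, 0 of the 75 genes passed in striatum, and the log2 differences there were 0.20 for Srsf5, 0.24 for Snrnp70, -0.05 for Sf3b5 and -0.11 for Prpf19.

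Srsf5 was at 7716, 8291, 8526, 7420 and 8275 in heterozygote PFC and at 7057 to 7909 (median 7745) in wild type. In hippocampus it was at 8445, 8603, 8593.5, 8935 and 8442 against 7600.3 to 8289 (median 7937). In striatum it was at 8210.2 to 10369 (median 8802) against 7810 to 8040 (median 7925). The genotypes overlapped in PFC and did not in hippocampus or striatum, and the log2 differences were 0.07 (SE 0.04), 0.12 (SE 0.03) and 0.18 (SE 0.05). Without striatal heterozygote replicate 6, which had the 10369, the last was 0.13.

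Snrnp70 was at 8692, 8399.5, 9221, 8052 and 9523 in heterozygote PFC and at 7727 to 9158 (median 8554) in wild type. In hippocampus it was at 9045, 9443, 9645, 10063 and 9523 against 8618 to 9337 (median 8787). In striatum it was at 8821 to 10009 (median 9118) against 7361 to 8410 (median 7779). Only in striatum did the genotypes not overlap, and the log2 differences were 0.04 (SE 0.05), 0.11 (SE 0.03) and 0.23 (SE 0.04). Wild-type striatum was the lowest of the groups, and the region calls of Snrnp70 above rest on those libraries, which also chose the gene; in heterozygotes it was at 0.06 for hippocampus against striatum (limma adjusted p = 0.353) and at -0.07 for PFC against striatum (limma adjusted p = 0.229).

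In the other direction, Sf3b5, a small SF3B subunit, had the lowest statistic of the 75 in each region. It was at 477.6, 502, 512.7, 409.1 and 431 in heterozygote PFC against 501.2 to 635.1 (median 541.1) in wild type. It was at 514.1, 454.1, 493.4, 450.3 and 470.7 against 444.7 to 591 (median 572.6) in hippocampus, and at 403.7 to 475.1 (median 460.2) against 460.9 to 579.6 (median 476.4) in striatum. The groups overlapped in each region, every heterozygote library lay below the wild-type mean of its region, and the log2 differences were -0.25 (SE 0.08), -0.21 (SE 0.08) and -0.15 (SE 0.07).

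**Figure D4:**
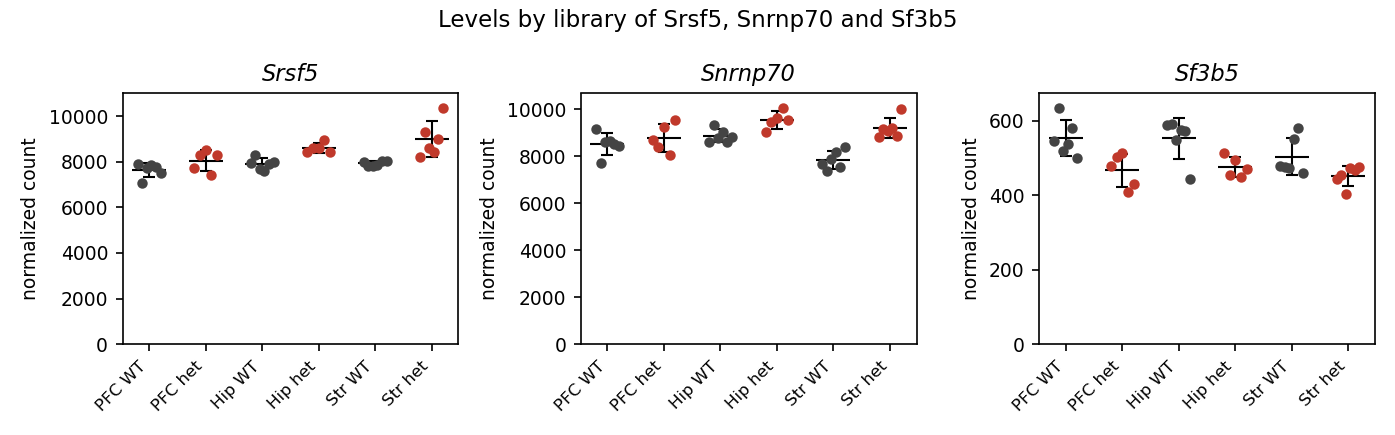
Points are single libraries, bars group means and whiskers 1 SD; the y axis is the normalized count from 0, with wild type (WT) dark and heterozygote (het) red in PFC, hippocampus (Hip) and striatum (Str). Srsf5 and Snrnp70 of the striatal heterozygotes lie above all wild-type striatal libraries, and Sf3b5 overlaps between genotypes in each region.

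Other genes with large statistics were, in PFC, Sf3b6 (-0.18, SE 0.07), U2af1l4 (0.20, SE 0.08), a relative of U2af1 that shares 1086 exon bases with Gm49396 on its own strand, and Srsf1 (0.09, SE 0.04). In hippocampus they were Snrpn (-0.07, SE 0.03) and Prpf38b (0.15, SE 0.04), a relative of the tri-snRNP protein Prpf38a. In striatum Prpf19 was at -0.06 (SE 0.04). Without the libraries whose code is on both genotypes, Snrnp70 was at 0.04, 0.13 and 0.24 in PFC, hippocampus and striatum, Srsf5 at 0.07, 0.13 and 0.20, and Sf3b5 at -0.27, -0.24 and -0.14, and 0 genes passed in each region.

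**Figure D5:**
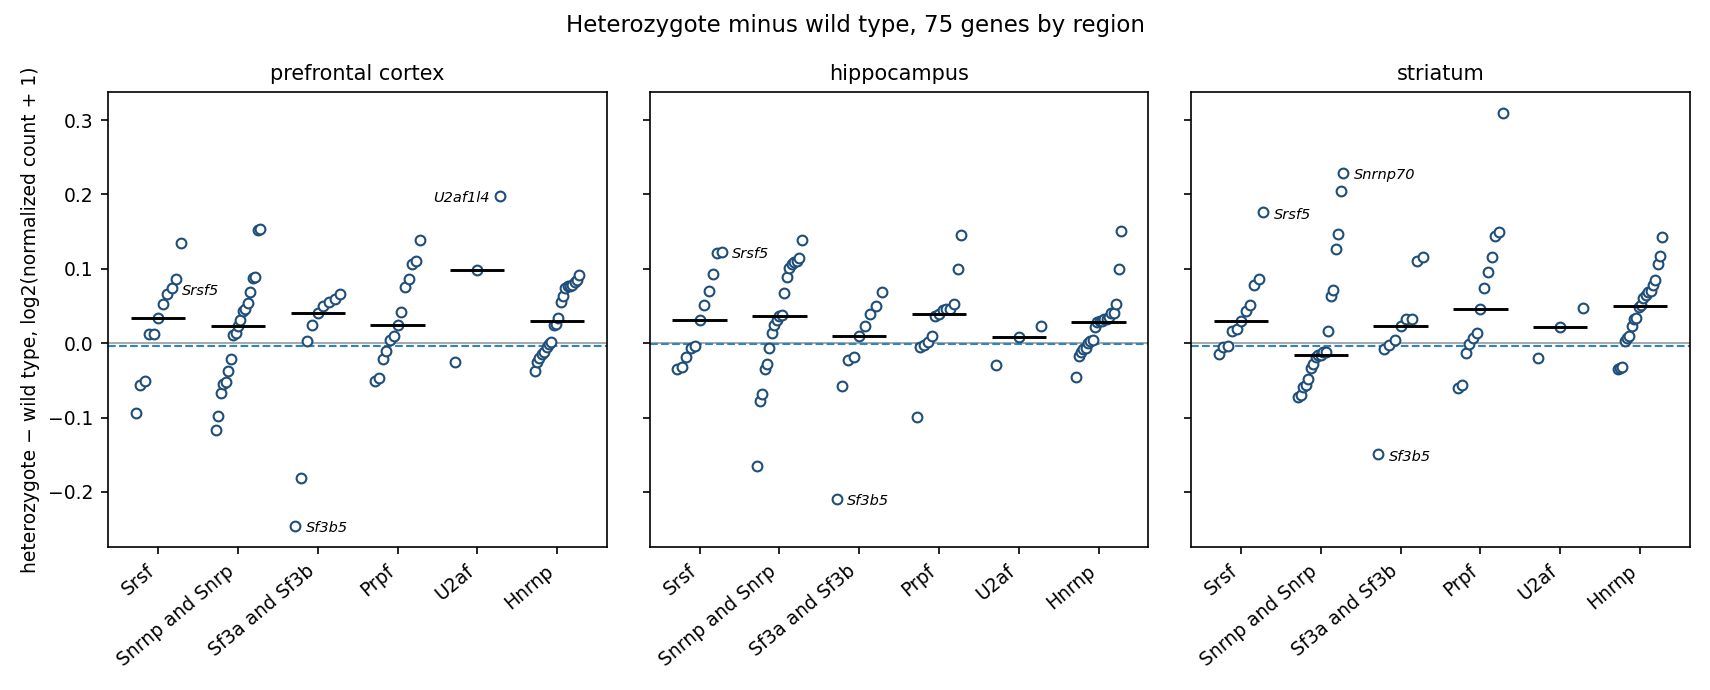
Each point is 1 of the 75 genes, plotted as heterozygote minus wild type on the log2(normalized count + 1) scale by subfamily in each region; bars are subfamily medians and the dashed line is the median of all genes tested. No point passed the adjusted threshold; the striatal points of Snrnp70 and Srsf5 are at 0.23 and 0.18, and Sf3b5 is the lowest point in each panel.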

How the data were processed

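The deposited table holds 1 signal value per gene and library, named DESeq counts by the authors in its file name and called normalized counts here; the values are not whole numbers, whole reads could not be obtained back, and the depth before scaling is unknown. The submitters' processing notes list GRCm38, DESeq2 1.26.0, Salmon 1.1.0 and R 3.6.2, with no role or order. Per the labels, libraries were made from total RNA with the TruSeq kit. Symbols, exons and overlaps came from GENCODE M21; 15 of 18548 identifiers had no match. All 34 columns matched a sample.

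Values were transformed to log2(value + 1), and genes with a mean of at least 10 were fitted with limma 3.58.1 in R 4.3.3 (empirical Bayes with trend and robust, 2-sided, Benjamini-Hochberg over all genes tested, threshold 0.05, no fold threshold). A fold on this scale understates changes of low genes. Regions were compared in 1 model of the 18 wild-type libraries and 1 of the 16 heterozygote libraries, and genotypes within each region. "SE" is limma's standard error, and intervals are 95%. The fit was tested on simulated data, and the share of true changes it recovered is not given here. The lack of calls between genotypes is therefore not read as an absence of change. Tables and figures came from pandas 2.3.3, numpy 2.4.6 and matplotlib 3.10.9 under python 3.11.15. The members and lists were chosen with earlier results of these data known.

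Named genes were Srsf5, Snrnp70, Snrpn, Snrpb, Prpf8, Sf3b1, U2af1 and Myt1l; up to 5 called genes in each direction with the largest difference per wild-type pair; the highest and lowest gene per kb in each subfamily; the 2 in each direction with the largest statistic per genotype contrast; any member standing apart in at least 3 groups (0 were found); and the 2 other splicing genes in each direction per wild-type pair. A gene picked by this rule is not reported here. Further called genes were named after their values were seen. Of 103 other splicing genes listed 102 were in the table and 101 tested (Esrp2 fell below the filter; Esrp1 was not analysed here).

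Alternatives were pseudocounts of 0.5 and 10, no filter, a mean of at least 100, equal library totals and limma without trend and robust. Others were the replicate number as a block and the column code as a random block. Further fits used only the 23 libraries whose code begins with 35, or left out each library in turn. What that first part of the code stands for is not given. Lengths per mean protein-coding transcript, and fits without the 5 striatal libraries whose summed cortical excitatory markers exceeded 5000, were added after seeing the data.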

Additional observations from a re-analysis of the deposited data

Results flagged for a closer look

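Within 450 pairs of a gene and a group, 27 had 1 library apart from the others by a gap test at the 95% level, and chance flags about 1 in 20; among the named genes there were 12. In PFC these were Prpf8 at 6120.2 in wild-type replicate 6 (the others 5182 to 5439) and at 6220.4 in heterozygote replicate 4 (5349 to 5576), Srsf1 at 4747.7 in heterozygote replicate 3 (5112 to 5259), Srsf9 at 743.1 in heterozygote replicate 4 (818.3 to 847.4) and Prpf39 at 2101.6 in heterozygote replicate 5 (1825 to 1899.7). In hippocampus they were Hnrnpa1 at 6463.5 in wild-type replicate 5 (6641 to 6722), Snrnp40 at 574.4 (513.2 to 529.3) and Sf3b5 at 444.7 (547.8 to 591) in wild-type replicate 6, and Snrpf at 363.4 in heterozygote replicate 1 (318.6 to 331). In striatal heterozygotes they were Snrpd1 at 1045.2 (826.6 to 901.1) and Snrnp70 at 10009.4 (8821 to 9189) in replicate 6, and U2af1l4 at 345.7 in replicate 4 (417.6 to 460.2). Without hippocampal wild-type replicate 6 the Sf3b5 difference of heterozygotes was -0.27, and without striatal heterozygote replicate 6 that of Snrnp70 was 0.20.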

How the results depend on the processing

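Of 221 alternative counts of called genes, 220 stayed within 1.5 times the reported count. The exception was heterozygote PFC against hippocampus with equal library totals, at 53 in place of 31. Equal totals gave 1 higher and 54 lower, 2 and 55, and 12 and 11 for the 3 wild-type pairs, and turned Snrnp70 in wild-type PFC against striatum from 0.12 to -0.0243; it is the change of scale itself that moves them. Among the named genes 1643 alternative values kept direction and side, 44 were no longer past the threshold, and 10 levels moved with the gene length used. Leaving out 1 library gave 34 to 39, 34 to 39 and 20 to 26 wild-type calls, 28 to 33, 34 to 41 and 11 to 15 heterozygote calls, and 0 between genotypes. In wild-type hippocampus and striatum the replicate numbers follow the column codes, and elsewhere they do so only in part. Whether number or code pairs mice is not given. Over all groups same-numbered libraries had a median correlation of 0.04 in their deviations (-0.10 to 0.30, other pairs -0.01). Those pairs differed in region or in genotype but not in both, so some set wild type against heterozygote within a region. Libraries sharing a column code across regions had a median of 0.06 (-0.03 to 0.30; other pairs -0.01). With the replicate number as a block the wild-type calls were 2 higher and 36 lower, 7 and 29, and 17 and 6, those of heterozygotes 1 and 30, 6 and 30, and 12 and 3, and 0 between genotypes; Snrnp25 against hippocampus and Snrpf were no longer called. The random code block gave 3 and 37 for wild-type PFC against hippocampus and no other change in wild type. The libraries whose code begins with 35, taken alone, gave 2 and 29, 7 and 26, and 15 and 5. Snrnp25 (either PFC pair), Snrpa1 (both its pairs), Sf3b1 against hippocampus, U2af1 against striatum, Snrpf and Hnrnph3 lost their calls there. That fit used fewer libraries, and lost power was not separated from a change in the genes. Shares of all genes called are not given for it, for the blocks or for the single libraries left out. Depth per library is unknown, so counting error was not separated from the spread between libraries.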
